A study of Mus musculus with 32 samples.

Results

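Tau and 9 other genes for proteins that bind microtubules were followed in motor neurons and glia of the lumbar spinal cord, in a mouse model of motor neuron disease and one of tauopathy. The genes were Mapt (tau), Map1a, Map1b, Map2, Map4, Map6, Mapre1, Mapre3, Map1lc3a and Map1lc3b, and every probe whose gene name was the current symbol or an older synonym of these was kept (the array files call 18 of the probes by the older Mtap names). They are 10 of the 19694 genes that could be named from current records and had 28 of the 41174 probes that were not controls, with 1 probe for Mapre3 and Map1lc3a and 5 for Map4. Of the 28, 8 were too dim to be tested in any comparison (3 of Map2, 2 of Map1a, 2 of Map4 and 1 of Map6). SOD1-G93A motor neurons and glia came from 8-week-old female B6SJL-Tg(SOD1-G93A)1Gur mice, whose transgene is a mutated SOD1 gene of human origin, and TAU-P301L motor neurons and glia from 16-week-old female B6D2F1-Tg(TAU-P301L) mice, which carry a mutant human tau. Controls were nontransgenic female littermates of the same age, B6SJL and B6D2F1. Model, age and strain therefore differ together, and the promoters of the transgenes are not given in the sources used here. Each extract held 500 cells of 1 kind from the anterior horn of 1 mouse, cut out by laser, and the labels do not say whether motor neurons and glia came from the same mice. Each of the 4 comparisons had 4 littermate pairs, and each pair was hybridised on 2 arrays of 2 colours with the dyes exchanged, so the pair is the replicate (n = 4). Levels are log2 intensities of the transgenic and of the control channel, and ratios are log2 of transgenic over control, averaged over the 2 arrays of a pair.

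Microtubules are polymers of tubulin that give axons and dendrites their tracks for transport. Tau, MAP1A, MAP1B, MAP2, MAP4 and MAP6 bind along the polymer and stabilise it. Tau is enriched in axons, MAP2 in dendrites and cell bodies, MAP1B is prominent in growing neurites, MAP4 is widespread in cells other than neurons, and MAP6 keeps neuronal microtubules stable in the cold. MAPRE1 (EB1) and MAPRE3 (EB3) track the growing ends. MAP1LC3A and MAP1LC3B (LC3) were first found as light chains of MAP1 proteins and are attached to lipid on autophagosome membranes. Mutant tau, as in TAU-P301L mice, aggregates in neurons.

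The genes whose probes differed most clearly between control motor neurons and control glia, the comparison with which the results open, were Map2, Map1b and Map1lc3b, and the 250 bases before their starts are shown to describe these genes, although the Map1b and Map1lc3b probes were well above background in only 2 and 3 of 8 glia extracts. The sequences are RefSeq's, on build GRCm38.p6, each 5′ to 3′ on the gene's own strand. Of the 10 genes, 7 have a start in the RefSeq table. Capitals mark the GC box GGGCGG, read on either strand as GGGCGG or CCGCCC, and the TATA box TATAAA, read as TATAAA or TTTATA. The Map2 window is chr1:66175079-66175328 on the plus strand, the Map1b window chr13:99516603-99516852 on the minus strand and the Map1lc3b window chr8:121590188-121590437 on the plus strand.
Map2: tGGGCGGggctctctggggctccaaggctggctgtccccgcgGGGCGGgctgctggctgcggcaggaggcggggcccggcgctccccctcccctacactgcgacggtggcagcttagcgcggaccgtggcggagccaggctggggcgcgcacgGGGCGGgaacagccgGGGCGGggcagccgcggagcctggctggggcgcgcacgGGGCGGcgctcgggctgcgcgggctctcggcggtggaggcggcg
Map1b: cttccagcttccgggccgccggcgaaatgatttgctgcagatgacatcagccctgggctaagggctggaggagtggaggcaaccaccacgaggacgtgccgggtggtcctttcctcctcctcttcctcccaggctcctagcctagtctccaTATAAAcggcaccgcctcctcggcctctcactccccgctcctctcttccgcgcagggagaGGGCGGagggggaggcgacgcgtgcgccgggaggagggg
Map1lc3b: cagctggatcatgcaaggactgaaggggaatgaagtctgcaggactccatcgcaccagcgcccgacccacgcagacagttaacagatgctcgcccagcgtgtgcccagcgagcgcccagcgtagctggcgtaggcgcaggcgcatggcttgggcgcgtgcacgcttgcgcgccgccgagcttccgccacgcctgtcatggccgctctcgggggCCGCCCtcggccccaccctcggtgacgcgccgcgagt
The Map2 window is 81.2% G and C and holds 5 GC boxes and 0 TATA boxes. The Map1b window is 66.4% G and C with 1 GC box and 1 TATA box, and the Map1lc3b window 69.6% with 1 GC box and 0 TATA boxes. Among 32851 windows of the same length, 32.7% held a GC box and 12.4% a TATA box. A match of these letters is a description of the window, not a known binding site.

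The captures were first set against cell markers. Control motor neurons exceeded control glia in Nefm, the neurofilament medium chain, by 1.67 and in the synaptic gene Snap25 by 2.28, and had a difference of -1.76 in myelin-associated Mag (limma adjusted p = 9.04e-05, 9.53e-05 and 0.000542). The separation was partial. Of 7 motor neuron markers tested, 4 were called higher in motor neurons and 1, the transcription factor gene Mnx1, lower (-0.36, adjusted p = 0.00832). Of 6 pan-neuronal markers 3 were called higher and 0 lower, with differences of -0.29 to 2.28. Astrocyte and oligodendrocyte markers had 5 of 9 called lower in each list and 0 higher, with 3 and 1 of the 9 above 0. The mean log2 level of 6 pan-neuronal markers ranged from 7.68 to 9.30 in control motor neurons and from 7.71 to 8.996 in control glia. Motor neuron markers Prph and Slc18a3 were not well above background in any glia extract of the SOD1-G93A colony, and Slc18a3 was not in any TAU-P301L motor neuron extract. In this bulk material, fewer cells of a type and less RNA per cell cannot be told apart. Between 8.5% and 64.1% of probes were well above background per extract. The 2 extracts of pair 3 of the SOD1-G93A motor neurons (17.5% in the transgenic and 16.3% in the control extract) had low levels of the neuronal, astrocyte and oligodendrocyte lists. Their pan-neuronal mean was 7.52 and 7.68, against 8.92 or more in the other extracts of that comparison. In its pair 4, detection was 14.7% in the transgenic, lower still, and 23.9% in the control extract. The dye-swapped arrays of a pair correlated between -0.77 and 0.64 after both were turned to transgenic over control, lowest in the pairs of scan 5, which were glia pair 2 of SOD1-G93A and glia pair 1 of TAU-P301L. Motor neurons and glia were scanned apart and with different versions of the scanner software, so cell type, scan and version cannot be told apart.

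In control mice, 4 probes of the set were higher in motor neurons than in glia and 0 were lower, with 8 motor neuron and 6 to 8 glia extracts read at a probe. They were probes of Map2, Map1lc3b, Map1b and Map4, higher by 1.31- to 1.65-fold. Of the 16 probes that could be tested, from 9 genes, these 4 passed an adjusted p of 0.05 by limma, beside 37.4% of all 11618 probes tested (25.9% higher in motor neurons and 11.5% lower). The median difference was 0.27 over the 16 probes and 0.12 over all probes. The Map1lc3b and Map1b probes were well above background in most motor neuron but few glia extracts, so they entered the test mainly through the cells in which they were higher, and these counts support nothing about the set.

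Map2, which marks dendrites and cell bodies, showed the greatest of these differences. Its probe A_52_P22763 had a lowest, median and highest level of 6.48, 7.25 and 7.40 in motor neurons, against 6.11, 6.37 and 7.02 in glia. Only the low extract of SOD1-G93A colony pair 3 brought the motor neuron range down into that of glia; the other 7 motor neuron extracts lay between 7.11 and 7.40. The mean difference was 0.72 ± 0.15 (SE, 1.65-fold, limma adjusted p = 0.00248), and 0.82 without that extract. The other 3 Map2 probes stayed near the floor of the scale, which lies close to 6 because 50 intensity units were added before logs, and were well above background in 2, 0 and 0 of the 8 motor neuron extracts. A gene near that floor cannot show a fall.

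Map1lc3b and Map1b followed with smaller differences. The Map1lc3b probe A_52_P563475 had 6.54, 6.72 and 6.91 (lowest, median, highest) in motor neurons and 5.99, 6.26 and 6.62 in glia, a difference of 0.43 ± 0.10 (adjusted p = 0.00332). It was well above background in 7 of 8 motor neuron extracts and 3 of 8 glia extracts, so the glia mean lies largely near the floor. The other Map1lc3b probe, A_51_P126177, 1847 bases further towards the 3′ end, differed by 0.27 with a 95% interval of -0.21 to 0.76 and was not called. The signal of Map1lc3b is uncertain where a near-identical copy of the gene hybridises to the same probe.

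For Map1b, the probe A_51_P205139 had 6.35, 6.61 and 6.82 in motor neurons and 5.84, 6.12 and 6.63 in glia, and was well above background in 7 and 2 of 8 extracts. Its difference, against glia mostly near the floor, was 0.43 ± 0.12 (adjusted p = 0.0116). The other Map1b probe, A_52_P360330, lies 2587 bases nearer the 3′ end and differed by 0.50 ± 0.19 (adjusted p = 0.0521), just outside the threshold. In motor neurons its levels split by colony. They were 6.06, 6.89, 6.46 and 6.37 in the 4 control extracts of the SOD1-G93A colony and 7.67, 7.29, 7.27 and 7.80 in those of the TAU-P301L colony, so the colonies did not overlap. The probe was well above background in 2 of the 4 extracts of the SOD1-G93A colony and 4 of 4 of the TAU-P301L colony. Strain and age differ with colony, and this split was seen in the values and not tested.

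Map4, the microtubule protein of cells other than neurons, gave different answers by probe. A_52_P239173 had 6.48, 6.94 and 7.57 in motor neurons and 6.04, 6.66 and 6.78 in glia, a difference of 0.39 ± 0.14 (adjusted p = 0.0385). The probes at the 3′ end of the gene, the last of them 78789 bases away in the array's annotation, read the other way, with differences of -0.35 ± 0.23 (A_51_P465445) and -0.40 ± 0.22 (A_52_P244572), neither called (adjusted p = 0.235 and 0.165). The Map4 call was lost, with an adjusted p of 0.0515 to 0.0769, when any of 9 control extracts was left out: motor neuron pairs 1 and 2 and glia pairs 1 and 4 of the SOD1-G93A colony, and motor neuron pairs 1, 2 and 4 and glia pairs 2 and 4 of the TAU-P301L colony.

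None of the 3 Mapt probes passed. The 3′-most, A_51_P140576, had 7.66, 9.06 and 9.38 in motor neurons and 8.01, 8.54 and 9.21 in glia, a difference of 0.38 with an interval of -0.09 to 0.85 (adjusted p = 0.189). The lowest motor neuron value was again pair 3 of the SOD1-G93A colony, and without that extract the difference was 0.55 (adjusted p = 0.0181). The probes A_52_P509297 and A_51_P476689 differed by 0.16 and 0.24 and were not called. In the array's own annotation, whose build is not given in the sources used here, the 3 probes lie on chromosome 11 at 104148087-104148146, 104146121-104146180 and, over a span of 3161 bases, 104134327-104137487, all on the plus strand.

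The other genes gave no call between the cell types. Map6, through A_52_P10732, had 7.01, 8.03 and 8.36 in motor neurons and 6.33, 8.22 and 8.94 in glia, with a difference of -0.13 ± 0.30. The end-binding gene Mapre1 read 0.38 ± 0.26 (A_52_P321225) and 0.27 ± 0.13 (A_51_P375714), and Map1lc3a 0.11 ± 0.10. Map1a, a neuronal MAP, through A_52_P593278, had 6.27, 6.35 and 6.49 in motor neurons and 6.36, 6.45 and 6.84 in glia, close to the floor. None of these passed, and Mapre3 was well above background in too few extracts to be tested. Levels are not ranked between genes, since probes differ in how brightly they bind.

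**Figure D1:**
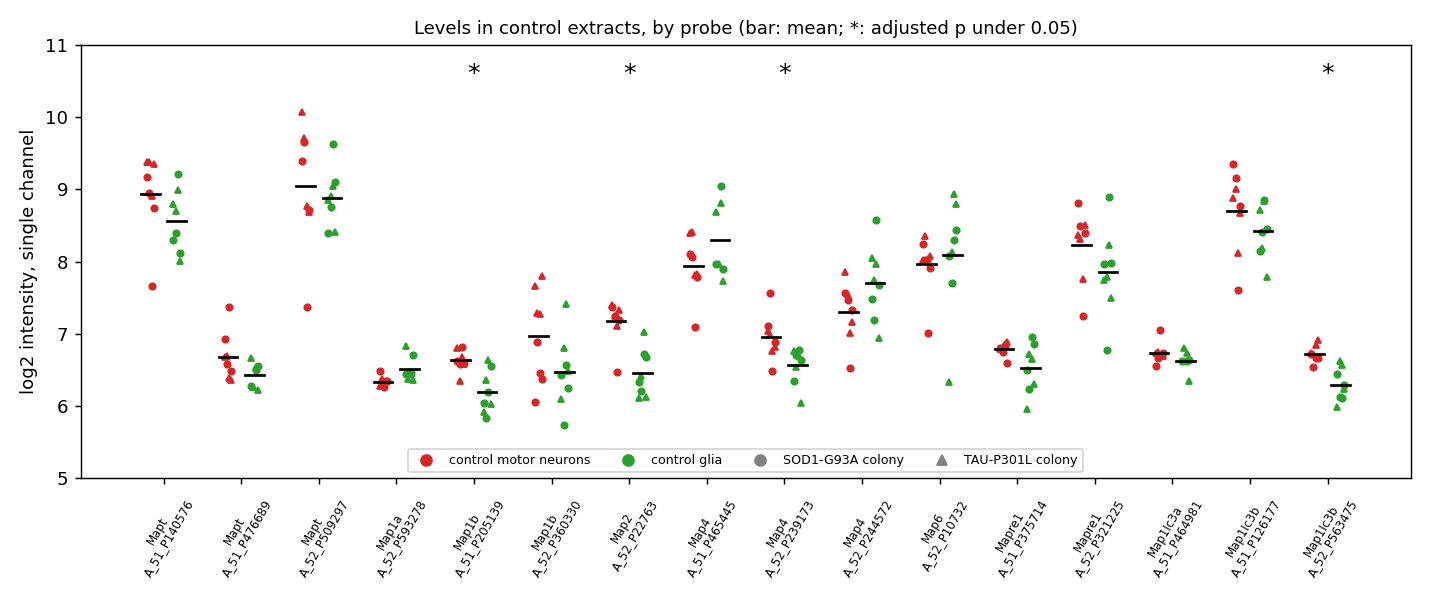
Log2 intensity (vertical axis) of the 16 tested probes in the control extracts, with motor neurons to the left of glia at each probe (8 motor neuron and 6 to 8 glia extracts), a bar at the mean and a star where limma's adjusted p was under 0.05. Circles are the SOD1-G93A colony and triangles the TAU-P301L colony; the ranges of motor neurons and glia overlap at every probe, and the 4 starred probes are those of Map1b, Map2, Map4 and Map1lc3b.

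The plot of control levels shows the overlap at all 16 probes and the low circle of pair 3 among the motor neurons of Mapt, Map2, Map4 and Map6. With the scan 5 extracts left out, an alternative chosen after seeing the data, Map6 was lower in motor neurons by 0.49 (adjusted p = 0.0427), and 5 probes of the set were called. With 1 probe per gene, the brightest, only the Map2 call remained. Each colony alone gave 0 calls in the set for SOD1-G93A controls and 1 for TAU-P301L controls, with 4 extracts of each cell type.

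In SOD1-G93A glia, tau and Map4 RNA stood above their littermates, without passing the threshold after adjustment. Probe A_51_P140576 of Mapt had levels of 8.92, 9.10, 9.37 and 8.85 in the 4 transgenic extracts, against 8.30, 8.39, 9.21 and 8.11 in their control littermates. Each transgenic extract lay above its own control, and the ranges overlapped only through the high control of pair 3. The mean was 9.06 ± 0.23 in SOD1-G93A glia and 8.51 ± 0.49 in control glia (SD, n = 4 each), a ratio of 0.55 ± 0.27 (SD over pairs, interval 0.30 to 0.81, 1.47-fold, limma adjusted p = 0.0991). Over the tested probes, the dye-swapped arrays of SOD1-G93A glia correlated at -0.20, -0.50, 0.36 and 0.44 in pairs 1 to 4. In pairs 1 and 2 the arrays thus disagreed.

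The second Mapt probe, A_52_P509297, lies 1966 bases upstream and gave the same picture. Its levels were 9.10, 9.37, 10.22 and 10.10 in SOD1-G93A glia and 8.39, 8.76, 9.62 and 9.10 in control glia. The 4 pair ratios were 0.71, 0.61, 0.60 and 1.00, with an interval of 0.29 to 1.17 for their mean (adjusted p = 0.109). All 4 pairs lay above 0, as they did for 10.9% of the 10641 probes with 4 pairs in this comparison. The third probe, A_51_P476689, 10659 bases upstream, read 0.15 ± 0.07 in the 3 pairs that had a value (adjusted p = 0.517).

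Of the 15 probes of the set tested in SOD1-G93A glia, 0 passed after adjustment, as for all 12257 probes (0% called), and 5 had an unadjusted p under 0.05, each of them higher, beside 14.7% of all probes (7.1% higher and 7.56% lower). These 5 were 2 of Mapt, 2 of Map4 and 1 of Map1a. The median was 0.16 over the 15 probes and 0.02 over all probes. Several of the 15 are probes of the same gene. Map1a at A_52_P846109, Map1b at A_52_P360330 and Map2 at A_52_P22763 were well above background in 3, 3 and 4 transgenic but 1, 1 and 2 control extracts. They thus entered the test more through transgenic glia, and these counts support nothing about the set.

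Map4 had its greatest ratio at A_52_P244572. The levels were 8.13, 7.96, 8.76 and 8.01 in SOD1-G93A glia, against 7.49, 7.19, 8.57 and 7.68 in control glia. As with Mapt, each transgenic extract was above its littermate and pair 3 had the highest control. The pair ratios were 0.64, 0.77, 0.19 and 0.34 (mean 0.48 ± 0.27, adjusted p = 0.0991). The neighbouring probe A_51_P465445 read 0.39 ± 0.46 over 3 pairs, carried by 0.92 in pair 4, and A_52_P239173 read 0.15 ± 0.12.

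Map1a, through A_52_P846109, read -0.07, 0.24, 0.65 and 0.26 in the 4 pairs (mean 0.27 ± 0.29, adjusted p = 0.107), with control levels of 5.97 to 6.54 near the floor. The probe was well above background in 3 transgenic and 1 control extract. Its p rests on the spread pooled over the 4 comparisons, smaller than that of these pairs. Among the 15 probes tested in SOD1-G93A glia, that of Map6, A_52_P10732, was the one below 0 in every pair, at -0.17, -0.11, -0.12 and -0.12 (mean -0.13 ± 0.03, adjusted p = 0.642), as were 10.4% of all probes read in 4 pairs. These ratios were small beside the shared error of the fit, which gave an interval of -0.35 to 0.09.

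Marker levels of the captured cells differed in some of these pairs. Astrocyte markers averaged 0.06, 0.15, -0.03 and 0.24 in pairs 1 to 4, with 8 of 9 genes above 0 and mean levels of 8.56 to 9.43 in SOD1-G93A and 8.495 to 9.28 in control glia. Endothelial markers averaged 0.37, 0.40, -0.05 and 0.48, with 2 of 3 genes above 0 and levels of 6.88 to 7.11 in SOD1-G93A and 6.49 to 6.93 in control glia. Both lists were lowest in pair 3, as were Mapt at A_51_P140576 and A_52_P509297 and Map4 at A_52_P244572. Of these 3 probes, A_51_P140576 alone put the other pairs in the lists' order. Pan-neuronal markers averaged -0.08, -0.14, 0.32 and -0.08, highest in pair 3, with 3 of 6 genes above 0 and levels of 8.01 to 8.34 in SOD1-G93A and 7.93 to 8.48 in control glia. Oligodendrocyte markers averaged 0.03, 0.36, 0.02 and 0.03. The part of these markers in the Mapt and Map4 ratios was not tested. Without the scan 5 pairs, an alternative chosen after seeing the data, the 2 Mapt probes read 0.50 and 0.77 and Map4 0.39 (limma adjusted p = 0.192, 0.175 and 0.222).

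**Figure D2:**
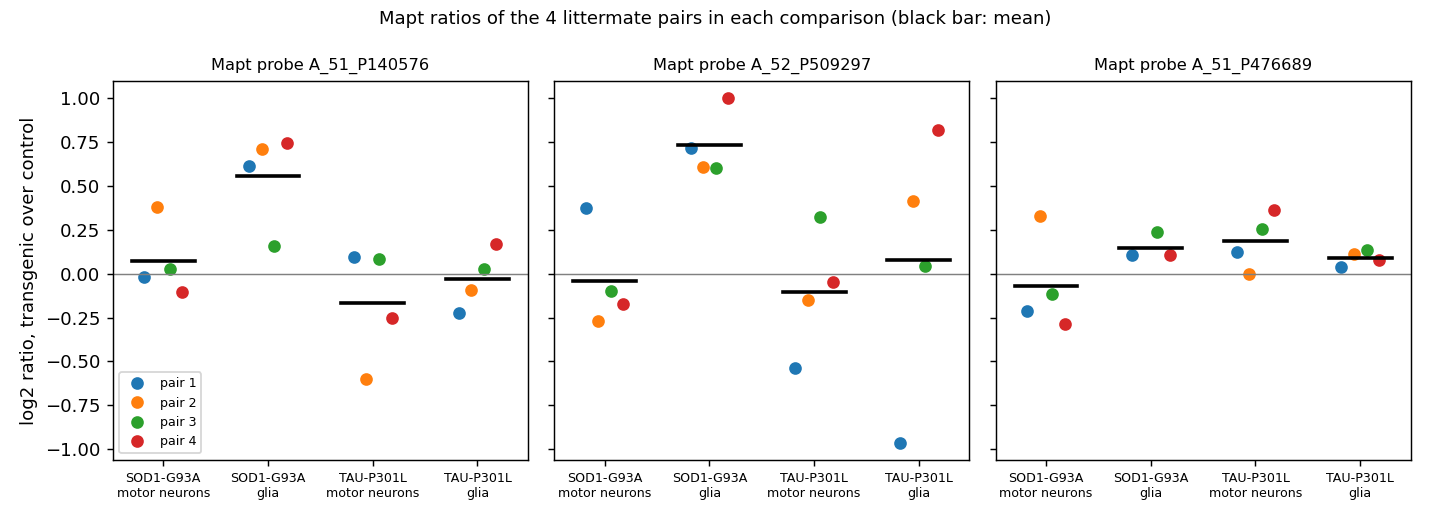
Log2 ratio of transgenic over control (vertical axis) for the 3 Mapt probes, in the 4 comparisons (horizontal axis); points are the littermate pairs and bars their means. In SOD1-G93A glia all points of all 3 probes lie above 0, while in the other comparisons at least 1 probe has points on both sides of 0.

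In TAU-P301L mice, whose transgene is a tau, the mouse tau probes did not separate transgenic from control. At A_51_P140576 the levels were 9.47, 8.78, 8.99 and 9.10 in TAU-P301L motor neurons, against 9.37, 9.38, 8.90 and 9.35 in control motor neurons. The groups overlapped, 2 pairs lay above 0 and 2 below, and the ratio was -0.17 ± 0.33 (interval -0.42 to 0.08). In TAU-P301L glia the same probe had 8.57, 8.60, 9.01 and 8.18, against 8.79, 8.69, 8.99 and 8.01 in controls, a ratio of -0.03 ± 0.17 (interval -0.28 to 0.22).

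At A_52_P509297 the TAU-P301L glia pairs ran from -0.96 to 0.82. The value of -0.96 belongs to pair 1, whose 2 arrays read 0.69 and -2.62, in scan 5. Probe A_51_P476689 read 0.12, 0.0006, 0.25 and 0.36 in TAU-P301L motor neurons (mean 0.18 ± 0.16, unadjusted p = 0.0382, limma adjusted p = 0.998) and 0.09 ± 0.04 in TAU-P301L glia. Whether any of these mouse probes also reads RNA of the human transgene was not tested. The plot of Mapt ratios by pair sets the 4 comparisons side by side.

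SOD1-G93A motor neurons had tau ratios on both sides of 0. They were -0.02, 0.38, 0.03 and -0.11 at A_51_P140576 and 0.37, -0.27, -0.10 and -0.17 at A_52_P509297, with means of 0.07 ± 0.21 and -0.04 ± 0.29. The 2 probes agreed on the sign in 11 of all 16 pairs (r = 0.60 over the 16 pair ratios, given as a description), and the third probe followed neither closely (r = 0.22 and 0.09 over 15 pairs).

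The difference between effects was tested directly. For SOD1-G93A motor neurons minus SOD1-G93A glia, A_51_P140576 gave -0.48 ± 0.17 and A_52_P509297 -0.77 ± 0.29 (SE, limma adjusted p = 0.258 and 0.316). For SOD1-G93A glia minus TAU-P301L glia the same probes gave 0.59 ± 0.17 and 0.65 ± 0.29 (adjusted p = 0.729 and 0.875), and Map4 at A_52_P244572 gave 0.75 ± 0.16 (adjusted p = 0.542), the Map4 ratio in TAU-P301L glia being -0.39, -0.32, -0.31 and -0.03. None passed, so these effects are not shown to differ between cell types or models.

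Map1b had the greatest ratio of the set over the 4 comparisons, in SOD1-G93A motor neurons, from 1 of its 2 probes, and it did not pass after adjustment. At A_52_P360330 the levels were 7.56, 8.52, 7.17 and 6.44 in SOD1-G93A motor neurons, against 6.06, 6.89, 6.46 and 6.37 in control motor neurons. The probe was well above background in 3 of the 4 transgenic and 2 of the 4 control extracts, so the control levels lie partly near the floor. Pairs 1, 2 and 3 lay above 0 by 1.51, 1.63 and 0.70, and pair 4 by 0.07, and the groups overlapped through the transgenic extract of pair 4. Among all probes read in 4 pairs, 5.21% lay above 0 in each. The mean levels were 7.42 ± 0.87 in SOD1-G93A and 6.44 ± 0.34 in control motor neurons, and the interval of the ratio was 0.57 to 1.38 (unadjusted p = 0.000124, limma adjusted p = 0.26). Interval and p-values rest on the spread pooled over the 4 comparisons. The SD over these pairs was 0.73, against 0.15 to 0.30 at this probe in the other comparisons. These pairs alone would give a wider interval.

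The Map1b value leaned on particular arrays and probes. In pair 3 the 2 dye-swapped arrays read 0.004 and 1.40, while in pairs 1 and 2 they read 1.67 and 1.34, and 1.86 and 1.39. Pairs 3 and 4, scanned together, had a mean of 0.39, and pairs 1 and 2, of another scan, 1.57. Without pair 4 the ratio was 1.28 and passed (limma adjusted p = 0.0197), and without pair 3, whose extracts stand apart, it was 1.07 (adjusted p = 0.203). In pair 4, 14.7% of all probes were well above background in the transgenic and 23.9% in the control extract. The other Map1b probe, A_51_P205139, read 0.28, -0.18, -0.17 and 0.61 in the same pairs (mean 0.13 ± 0.38, adjusted p = 0.741). The 2 probes had the same sign in 8 of 16 pairs (r = -0.11), and they lie on chromosome 13 at 100522708-100522767 and 100525295-100525354 on the minus strand, in the array's own annotation.

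**Figure D3:**
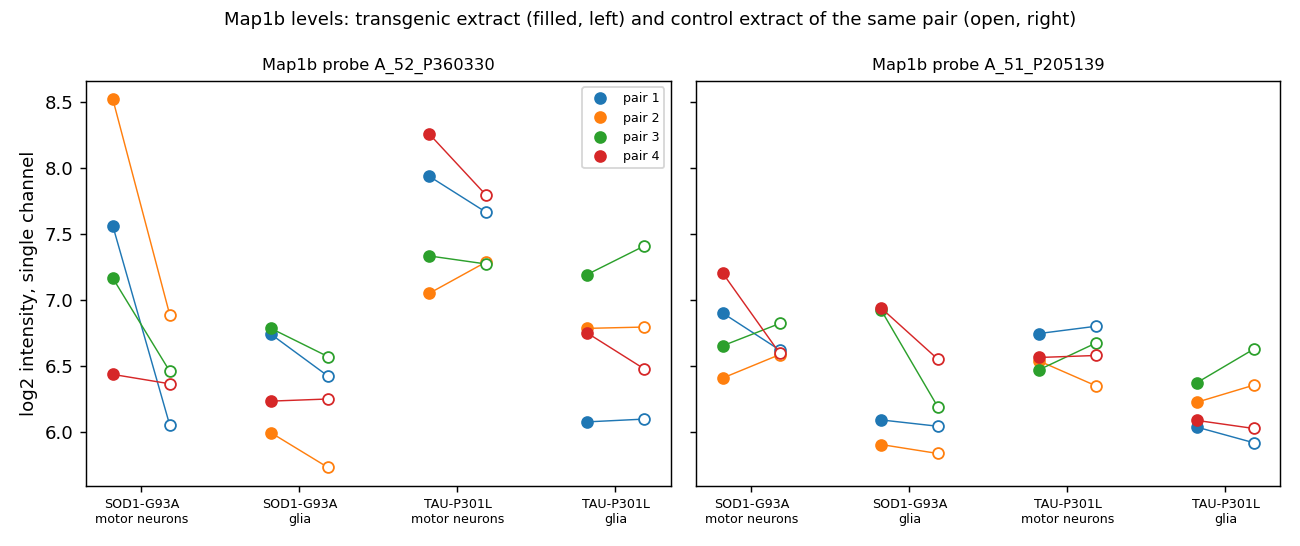
Log2 intensity (vertical axis) of the 2 Map1b probes in the transgenic extract (filled, left) and the control extract (open, right) of each littermate pair, by comparison (horizontal axis). At A_52_P360330 the 4 lines of SOD1-G93A motor neurons all slope down from transgenic to control, from 0.07 to 1.63 in height, and the control motor neurons of the TAU-P301L colony lie at 7.27 to 7.80, above those of the SOD1-G93A colony at 6.06 to 6.89.

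In the plot of Map1b levels the SOD1-G93A motor neurons of pairs 1 and 2 reach the levels of the TAU-P301L colony. The ratios at A_52_P360330 were 0.19 ± 0.15 in SOD1-G93A glia, 0.14 ± 0.30 in TAU-P301L motor neurons and 0.006 ± 0.20 in TAU-P301L glia. The direct differences were 0.78 ± 0.27 for SOD1-G93A motor neurons minus glia and 0.84 ± 0.27 for SOD1-G93A minus TAU-P301L motor neurons (SE, adjusted p = 0.256 and 0.413). Oligodendrocyte markers lay above 0 in 10 of 10 genes in SOD1-G93A motor neurons, with pair means of 0.32, 0.02, 0.35 and -0.11 and levels of 7.24 to 8.49 in SOD1-G93A and 6.93 to 8.21 in control motor neurons. Motor neuron markers lay above 0 in 3 of 10 genes, with pair means of -0.44, -0.07, -0.14 and 0.12 and levels of 7.30 to 8.66 in SOD1-G93A and 7.44 to 8.89 in control motor neurons. The part of these markers in the Map1b ratio was not tested.

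Of the 19 probes of the set tested in SOD1-G93A motor neurons, from all 10 genes, 0 passed after adjustment (0% of 16710 probes called), and 3 had an unadjusted p under 0.05, 1 higher and 2 lower, beside 9.72% of all probes (3.17% higher and 6.55% lower). The 2 lower values were of Mapre1 and Map1lc3b. The median was -0.03 over the 19 probes and -0.004 over all probes.

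Mapre1, which tracks growing microtubule ends, read -0.35, -0.82, 0.06 and -0.23 at A_51_P185509 in SOD1-G93A motor neurons. The probe was well above background in only 2 of the 4 transgenic and 2 of the 4 control extracts, so it was read partly near the floor. The levels were 6.30, 6.75, 6.09 and 6.14 in transgenic and 6.65, 7.57, 6.03 and 6.36 in control extracts, so pair 2 had the widest gap and pair 3 none in that direction (mean -0.33 ± 0.37, unadjusted p = 0.00361, limma adjusted p = 0.378). These p-values rest on the spread pooled over the 4 comparisons, smaller than that of these pairs. Without pair 2 the mean was -0.17 and without pair 3 it was -0.47, and with the scanner's processed signals the sign turned (0.34, adjusted p = 0.885). The probe A_52_P321225 read -0.12 ± 0.56 and A_51_P375714 -0.03 ± 0.31. In TAU-P301L motor neurons the 3 probes read 0.08, 0.13 and -0.06, and in SOD1-G93A glia A_52_P321225 read 0.41 ± 0.51, carried by 1.15 in pair 2, the scan 5 pair. Mapre3 was tested in motor neurons only, with -0.02 ± 0.13 in SOD1-G93A and 0.02 ± 0.03 in TAU-P301L.

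Map1lc3b had ratios of opposite sign in the motor neurons of the models, without passing. Map1lc3b at A_51_P126177 had 8.94, 9.33, 7.59 and 8.08 in SOD1-G93A motor neurons, against 9.35, 9.16, 7.61 and 8.77 in controls. Pairs 1 and 4 were lower in the transgenic, pair 2 higher and pair 3 close to 0 at -0.01 (mean -0.24 ± 0.39, unadjusted p = 0.0426, limma adjusted p = 0.506). These p-values rest on the spread pooled over all comparisons, smaller than that of these pairs. Leaving out each pair in turn gave -0.37 to -0.09, the weakest without pair 4 and -0.31 without pair 3. In pair 4, 14.7% of probes were well above background in the transgenic and 23.9% in the control extract. In TAU-P301L motor neurons the same probe had 9.16, 9.18, 8.22 and 9.10, against 8.88, 9, 8.12 and 8.68 in controls, above the control in each pair, as were 6.8% of all probes read in 4 pairs (mean 0.24 ± 0.14, unadjusted p = 0.0388, adjusted p = 0.998). The difference between these effects was -0.48 ± 0.15 (SE, adjusted p = 0.405). The second Map1lc3b probe read -0.04 ± 0.16 and -0.06 ± 0.09 in the same comparisons, and Map1lc3a 0.03 ± 0.20 and -0.06 ± 0.15. Motor neuron markers lay above 0 in 3 of 10 genes in SOD1-G93A motor neurons (median -0.17) and in 6 of 7 in TAU-P301L motor neurons (median 0.14), where their pair means were 0.23, 0.30, -0.15 and 0.41, lowest in pair 3 and highest in pair 4 as for Map1lc3b. Their part in the Map1lc3b ratios was not tested.

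TAU-P301L motor neurons had 20 tested probes of the set, of which 0 passed (0% of 14110) and 2 had an unadjusted p under 0.05, both higher, beside 3.57% of all probes (1.91% higher and 1.67% lower). These were the Mapt probe A_51_P476689 and Map1lc3b. TAU-P301L glia had 16 tested probes, of which 0 passed (0% of 10240) and 1 had an unadjusted p under 0.05, beside 12.5% of all probes (4.59% higher and 7.88% lower). That probe was Map4 at A_52_P244572, with levels of 7.65, 7.43, 7.66 and 6.91 in TAU-P301L glia and 8.04, 7.75, 7.97 and 6.94 in control glia. Each transgenic extract lay below its littermate, the groups overlapped, and the mean was -0.26 ± 0.16 (adjusted p = 0.356). In these pairs oligodendrocyte markers averaged -0.44, -0.20, -0.08 and -0.11, with 1 of 9 genes above 0 and levels of 8.43 to 8.72 in TAU-P301L and 8.53 to 9.01 in control glia, and astrocyte markers -0.22, -0.21, -0.33 and -0.07, with levels of 8.29 to 8.81 in TAU-P301L and 8.36 to 9.12 in control glia. Their part in the Map4 ratio was not tested.

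**Figure D4:**
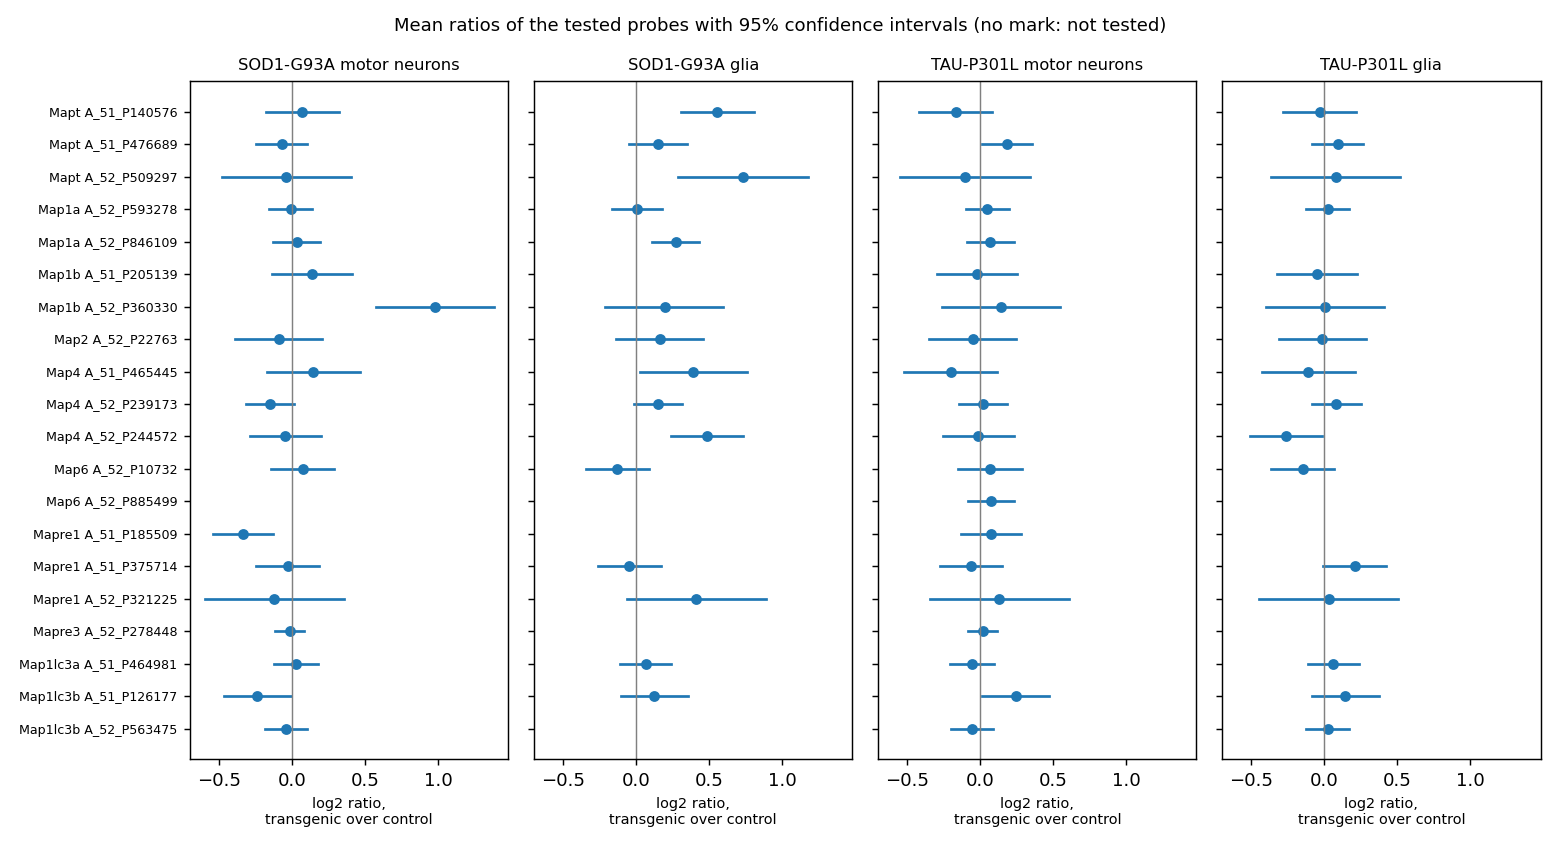
Mean log2 ratio of transgenic over control (horizontal axis) with its 95% interval from limma for each tested probe of the set (rows), in the 4 comparisons (panels); rows without a mark were not tested. In SOD1-G93A glia the greatest means are those of 2 Mapt probes and 1 Map4 probe, and in SOD1-G93A motor neurons the Map1b probe A_52_P360330 stands at 0.98 away from the other 18.

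The plot of mean ratios shows that most intervals cross 0 in every comparison. Map2 is one of them, with ratios of -0.09 (SOD1-G93A) and -0.05 (TAU-P301L) in motor neurons, of 0.16 (SOD1-G93A) and -0.02 (TAU-P301L) in glia, and an interval of -0.39 to 0.21 in SOD1-G93A motor neurons. Map6 lay between -0.15 and 0.07 in all 4. In the tests of differences between comparisons 0 probes of the set passed and 0 of all probes did (limma, 0% called in each). At an unadjusted p under 0.05 there were 8 of 19 for SOD1-G93A motor neurons minus glia (1 higher, 7 lower, beside 10.9% of 17604 probes, 6.12% higher and 4.82% lower) and 0 of 20 for TAU-P301L motor neurons minus glia (4.05% of 14751, 1.79% higher and 2.26% lower). For SOD1-G93A minus TAU-P301L there were 4 of 20 in motor neurons (1 higher, 3 lower, beside 9.17% of 17168, 3.29% higher and 5.89% lower) and 5 of 17 in glia, each higher (5.53% of 12883, 3.69% higher and 1.84% lower). The comparisons joined in a difference share their values with the single comparisons above, so these counts are not separate evidence.

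Genes that act with these proteins were followed through 7 lists, each gene read from its brightest tested probe. In control mice, each list held genes called between motor neurons and glia, beside 36.8% of all 9990 genes tested, with a median of 0.11 over all genes. Of all 11618 probes tested, 25.9% were higher in motor neurons and 11.5% lower. The lists were not tested as sets, and these counts only describe them. Of 9 genes for stathmins, which bind free tubulin, and for microtubule severing or depolymerising enzymes, 4 were higher in motor neurons and 1 lower (median 0.62). Stmn3 was higher by 1.21 (2.31-fold, adjusted p = 0.00341), with levels of 7.93, 9.99 and 10.13 (lowest, median, highest) in motor neurons and 7.94, 8.47 and 9.06 in glia. Stmn4 was lower, with a difference of -2.06 ± 0.34 (adjusted p = 0.000571) and levels of 7.68, 9.48 and 10.39 in motor neurons and 11.06, 11.32 and 12.02 in glia, and the groups did not overlap. The kinesin-13 gene Kif2a was higher by 0.62 and the severing subunit gene Katna1, well above background in 5 motor neuron and 3 glia extracts, by 0.31.

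Among 16 tau kinase genes, 4 were higher in motor neurons and 1 lower (median 0.20). Cdk5r1, which encodes the p35 activator of Cdk5, had levels of 6.80, 7.26 and 7.47 in motor neurons and 5.98, 6.21 and 6.51 in glia, without overlap, a difference of 1.02 ± 0.11 (adjusted p = 6.62e-05). It was well above background in 7 and 3 of 8 extracts, so it entered the test mainly through motor neurons and no fold is given. The microtubule affinity kinase gene Mark3 was higher by 0.80, while tau tubulin kinase Ttbk1 had a difference of -1.15 (adjusted p = 0.00759). Of 8 genes in the list of tau phosphatases and related enzymes, 4 were higher and 0 lower (median 0.54). They were Ppp3ca, the catalytic subunit of calcineurin, by 1.55 (2.93-fold, adjusted p = 0.00026), the PP2A subunits Ppp2ca by 1.04 and Ppp2r2b by 0.88, and Ppp5c by 0.66.

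Of 6 genes for proteins at microtubule ends, 3 were higher and 2 lower in motor neurons. The minus-end binder Camsap2 had levels of 6.51, 7.72 and 8.31 in motor neurons and 8.78, 9.71 and 11.13 in glia, a difference of -1.98 ± 0.34 with no overlap (adjusted p = 0.000803). Apc, which binds plus ends, differed by -0.64, and Clasp1 and Slain2 were higher by 0.56 and 0.41 (each well above background in 7 motor neuron and 4 glia extracts). Of 8 tubulin modification genes, 3 were higher, among them the deglutamylase Agtpbp1 by 0.82 and the glutamylase Ttll7 by 0.69 (well above background in 6 motor neuron and 2 glia extracts), and 1 was lower, the detyrosinating enzyme Vash1 at -0.99. Of 11 genes for LC3 relatives, their conjugation and their adaptors, 4 were higher and 0 lower, led by the adaptor Nbr1 at 0.80. The others, Atg10, Atg5 and Atg3, were well above background in 8, 5 and 6 motor neuron but 4, 3 and 4 glia extracts. They thus entered the test more through motor neurons. Of 10 other MAP genes, 2 were higher, Dclk1 by 0.85 and Map7d2 by 0.66. Cell type coincides with scan and scanner software in all of these.

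None of the 7 lists had a gene that passed in any transgenic comparison (limma, 0% called). The genes tested numbered 13543 (SOD1-G93A) and 11789 (TAU-P301L) for motor neurons, and 10575 (SOD1-G93A) and 8993 (TAU-P301L) for glia. Among the lists in SOD1-G93A motor neurons, 0 of 9 stathmin and severing genes and 2 of 12 other MAP genes lay above 0, with medians of -0.09 and -0.06. Stmn2 read -0.62, -0.12, -0.12 and -0.93 in the 4 pairs (adjusted p = 0.506), and the tubulin polymerisation gene Tppp3 -0.61, -0.20, -0.35 and -0.52 (mean -0.42 ± 0.18, adjusted p = 0.312). The LC3 list had 1 of 12 genes above 0, with Atg3 at -0.17, and the phosphatase list 2 of 9, with Ppp2ca at -0.28. Pan-neuronal markers had 1 of 6 above 0 in the same pairs (median -0.17), and their part in these list values was not tested.

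In SOD1-G93A glia the list medians lay between -0.03 and 0.10. Ttbk1 read -0.25, -0.79, -0.41 and -0.75 in the 4 pairs (mean -0.55 ± 0.26, unadjusted p = 0.000325, adjusted p = 0.0991), below 0 in each. Its difference for SOD1-G93A motor neurons minus glia was 0.75 ± 0.17 (SE, limma adjusted p = 0.153). For SOD1-G93A glia minus TAU-P301L glia it was -0.30 ± 0.17 (SE, limma adjusted p = 0.988). The spectraplakin Dst read -0.61 ± 0.25, the glutamylase Ttll5 -0.36 ± 0.26 and the minus-end binder Camsap1 0.45 ± 0.36 (adjusted p = 0.108, 0.101 and 0.0991).

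In TAU-P301L glia, 5 of 6 stathmin and severing genes lay above 0 (median 0.21), with Stmn3 at 0.34 ± 0.28 and Kif2a at 0.24 ± 0.34. The adaptor Sqstm1 (p62) read 0.18, 0.20, 0.11 and 1.11 (adjusted p = 0.313) and the LC3 relative Gabarapl1 0.39 ± 0.09 over 3 pairs (adjusted p = 0.247). Dst and Ttll5 read -0.45 ± 0.44 and -0.35 ± 0.19. In these pairs 0 of 9 astrocyte markers and 4 of 5 pan-neuronal markers lay above 0 (medians -0.15 and 0.10), and their part in the list values was not tested. TAU-P301L motor neurons had list medians between -0.07 and 0.08, with the plus-end gene Clip1 at -0.16 ± 0.13 (unadjusted p = 0.011, adjusted p = 0.998).

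**Figure D5:**
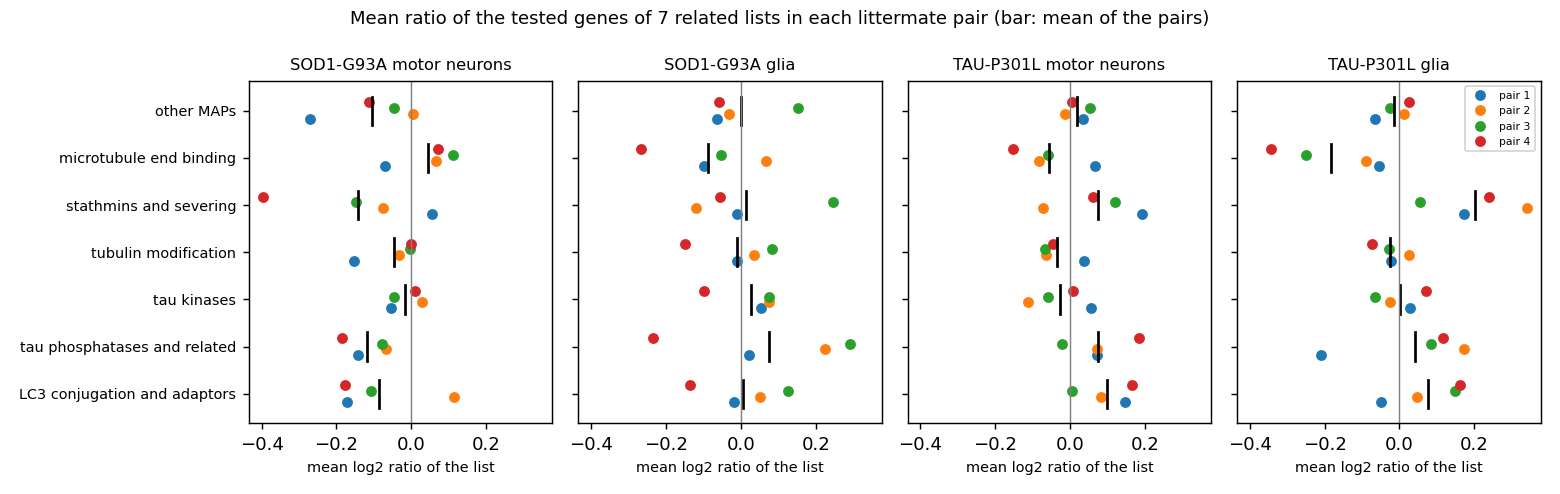
Mean log2 ratio of transgenic over control (horizontal axis) of the tested genes of each of the 7 lists (rows), for each littermate pair (points) with the mean of the pairs as a bar, in the 4 comparisons (panels). Pairs of the same comparison often lie on both sides of 0; in SOD1-G93A motor neurons the points of the phosphatase list lie between -0.19 and -0.07, and in TAU-P301L glia those of the stathmin and severing list between 0.06 and 0.34.

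The plot of list means by pair shows how widely littermate pairs differed, from -0.40 to 0.05 for the stathmin and severing list in SOD1-G93A motor neurons. The genes whose 16 pair ratios were most like those of Mapt at A_52_P509297 were Pigs (r = 0.83), Calm3 (r = 0.82), Smim11 (r = 0.82), Ubxn1 (r = 0.81) and Ctdsp2 (r = 0.80), of 5284 genes compared, whose median r was 0.08. For Map1b at A_52_P360330 they were Efemp2 (r = 0.80), Olfr338 (r = 0.77), Scd1 (r = 0.77), Adra2b (r = 0.76) and Adra2a (r = 0.75), with a median r of 0.05. The points share arrays, controls and dyes, and these correlations are descriptions.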

How the data were processed

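RNA of 500 laser-captured cells per mouse was amplified and hybridised on Agilent mouse arrays of 2 colours, 32 arrays in all, read with Agilent Feature Extraction 8.5.1.1 per the submitters' processing notes (8.5.1.1 for motor neurons and 9.5.1.1 for glia per the file headers). The deposited files hold the mean spot and median background intensity of each channel, the scanner's processed intensity and its log10 ratio, none normalised between arrays by the authors. The authors' series matrix holds a log10 ratio per array, rounded to 1 decimal, and correlated with the scanner's log10 ratio at an absolute r of 0.982 to 0.999. The sign of r followed the dye of the transgenic sample, so the matrix runs as transgenic over control, and it was used only as an alternative. The members and gene lists were chosen with earlier results of these data known.

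Intensities were corrected with normexp (offset 50) and loess in limma 3.58.1 (R 4.3.3), with control spots given no weight and outlier-marked spots left out. Log ratios were turned to transgenic over control and the 2 dye-swapped arrays of a pair averaged, and a pair was missing where either array was. One limma fit held all 16 pairs, with Benjamini-Hochberg adjustment over all tested probes of a comparison and a threshold of 0.05. A probe was tested where both arrays were well above background in 4 or more of 8 extracts. Control motor neurons and glia were compared on single-channel log2 intensities after loess and Aquantile, with colony as a covariate, for probes detected in 8 or more of 16 control extracts. These single channels remain open to dye bias, which the exchanged dyes balance within each pair. Intervals are at 95%, and the number of arrays and extracts limits the precision. The labels describe cells taken from each mouse and 4 biological replicates. P-values of ratios rest on the spread between littermate pairs, pooled over the 4 comparisons and moderated across probes. Those of control motor neurons against control glia rest on the spread between control extracts. Where the pairs of a comparison spread more widely than the pooled estimate, the interval of their ratio is narrower than those pairs alone would give.

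Genes were named through RefSeq accession for 23374 probes, current symbol for 6733 and older synonym for 2919, and 8148 kept the file's name. Every probe of the members was considered for description, and from each pathway list and comparison up to 4 genes past the threshold, or otherwise the 2 with the smallest p, could be named, each read from its brightest tested probe. The genes most like Mapt and Map1b are the 5 with the highest Pearson r over 16 pair ratios. The fit was tested on simulated data. Alternatives covered the background correction, the authors' matrix, the filter, 1 probe per gene, scan and replicate blocks, single colonies and leaving out each replicate. Some genes of these lists are counted but not reported here by name.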

Additional observations from a re-analysis of the deposited data

Results flagged for a closer look

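A sample stood far from the others of its group (its gap to the nearest over the group's range passed Dixon's 95% value) in 10 of 151 groups examined, or 6.62%, where chance gives about 1 in 20. Of these, 5 lie in the control motor neuron extract of SOD1-G93A colony pair 3, set against the other 7 control motor neuron extracts. Mapt at A_51_P140576 was 7.66 there, against 8.74 to 9.38 in the others, Map2 at A_52_P22763 was 6.48 (others 7.11 to 7.40), Map4 at A_51_P465445 was 7.10 (others 7.79 to 8.40) and Map6 at A_52_P10732 was 7.01 (others 7.90 to 8.36). Map1lc3a went the other way in that extract, with 7.06 against 6.55 to 6.75. The same extract had a pan-neuronal marker mean of 7.68, against 8.99 to 9.30 in the others.

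Mapre1 at A_51_P375714 was 6.60 in the control motor neuron extract of SOD1-G93A colony pair 4, against 6.75 to 6.89 in the others. Map6 at A_52_P10732 was 6.33 in the control glia extract of TAU-P301L colony pair 1, against 7.70 to 8.94, and that extract had the highest pan-neuronal marker mean of the control glia, 8.996. Among pair ratios, the tubulin deacetylase Hdac6 read -0.65 in SOD1-G93A motor neuron pair 2 (others -0.10 to -0.003). The adaptor Sqstm1 read 1.11 in TAU-P301L glia pair 4 (others 0.11 to 0.20), and the ubiquitin ligase Mid1 read 0.013 there (others -0.33 to -0.30).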

How the results depend on the processing

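No member reversed past the threshold under any alternative, and limma called 0 member probes in the 4 transgenic comparisons and their differences except in SODmn, 1 without background correction (Map1b 0.94, adjusted p = 0.0457) and 0 to 1 with each replicate left out (the call was Map1b without replicate 4). Here SODmn, SODgl, TAUmn and TAUgl stand for the motor neurons (mn) and glia (gl) of each model. Over all probes, SODmn gave 22 calls without background correction (4 higher, 18 lower), 1 with the authors' series matrix and 1 with no filter on dim probes. TAUmn gave 2 without background correction, 1 with the authors' series matrix and 2 of 6051 with all 8 extracts well above background. TAUgl gave 1 with the authors' series matrix and 1 without the scan 5 pairs, as did TAUmn minus TAUgl without the scan 5 pairs. SODgl gave 2 with a normexp offset of 16 and 6 with scan as a random block (4 higher, 2 lower). With each replicate left out, calls ranged from 0 to 1 in SODmn, SODgl, TAUgl, SODmn minus TAUmn, TAUmn minus TAUgl and SODgl minus TAUgl, and from 0 to 8 in TAUmn, with 8 without replicate 3. For control motor neurons minus control glia, 10416 of 41174 probes were called with no filter and 187 of 671 with all 16 control extracts well above background, where 0 member probes could be tested. The SOD colony alone gave 576 calls and 0 member calls, the TAU colony alone 1742 and 1, and 1 probe per gene gave 1 member call of 9. Fewer extracts, probes or tests enter these fits by construction. For the other counts the cause was not tested.

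Over the alternatives, Mapt in SODgl ran from 0.47 to 0.71 at A_51_P140576 and from 0.64 to 0.92 at A_52_P509297, and Map4 at A_52_P244572 from 0.38 to 0.61, with adjusted p of 0.0666 to 0.432. Map1b at A_52_P360330 in SODmn ran from 0.76 to 1.65 (adjusted p = 0.0197 to 0.849). Mapre1 at A_51_P185509 in SODmn ran from -0.71 to 0.34, above 0 with processed signals, and several ratios near 0 also changed sign under some alternative. Among control calls, Map2 was lost in the SOD colony alone (0.59, adjusted p = 0.14), and Map1b at A_51_P205139 and Map1lc3b at A_52_P563475 were lost in each colony alone. Map1b at A_52_P360330 was called in 7 of 26 alternatives. Among them were quantile normalisation (0.59, adjusted p = 0.0271) and processed signals (1.34, adjusted p = 0.0316). Mapt at A_51_P476689 was called with processed signals (0.95, adjusted p = 0.0117). Mapre1 at A_51_P375714 was called in 2 of 25 alternatives, 1 of them quantile (0.35, adjusted p = 0.0367).

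Replicate numbers were not taken to pair motor neurons with glia, as the labels do not say. Same-numbered deviations of pair ratios correlated at -0.11, 0.04, 0.21 and 0.25 in the SOD colony and 0.18, 0.10, 0.07 and 0.28 in the TAU colony. The highest r with another number was 0.26, 0.10, 0.32 and -0.007 (SOD) and 0.14, 0.06, 0.18 and 0.04 (TAU). For control levels the same-numbered r was -0.02, 0.19, -0.04 and 0.21 (SOD) and 0.52, -0.09, 0.11 and 0.17 (TAU). The highest with another number was 0.15, 0.11, 0.14 and 0.09 (SOD) and -0.03, 0.14, 0.45 and 0.21 (TAU). These values do not settle whether mice were shared. With a random replicate block, SODmn, SODgl, TAUmn and TAUgl again gave 0 calls (1625, 1793, 501 and 1277 at an unadjusted p under 0.05). A random replicate block gave 4364 calls and 4 member calls for control motor neurons minus control glia. A fixed replicate block gave 0 calls for SODmn minus SODgl and TAUmn minus TAUgl. Signals near background, 12 of 28 member probes untested in the control comparison, limit what could be seen.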
